A study of Mus musculus with 84 samples.

Results

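Of 84 single cells sorted as endothelium from the mouse aorta-gonad-mesonephros (AGM) region, 10 held transcripts of the blood regulator Runx1. The members are the cells with Runx1 at a level of 1 or more in TPM (transcript abundance scaled to the same total in every cell), and they are set against the other 74 cells, in which Runx1 was under TPM 1. All 84 cells came from E11.5 embryos, where E counts embryonic days, and all carried the same sort: positive for the surface proteins CD31 and CD144, negative for CD41 and CD45. The labels name no genotype, strain, treatment, embryo or pool, so the 84 cells form 1 sample. The group of 10 is small, it was chosen from its measured Runx1 values, and every statement on it describes these cells without a test.

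Runx1 encodes a DNA-binding transcription factor that works as a dimer with Cbfb and is required in mouse embryos for endothelial cells of the dorsal aorta to turn into blood cells. Cells in that transition are called hemogenic endothelium, and the transcription factor Gata2 and the receptor Kit are used beside Runx1 to mark them. CD41 (Itga2b) and then CD45 (Ptprc) appear at the surface as blood identity is gained, so the gate used here is placed before that step. Runx1 transcripts are also known in mesenchyme of the AGM and in megakaryocytes, the cells that make platelets.

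Runx1 (chromosome 16, 92601466 to 92826074 in GRCm38) was found at 42.2 TPM in cell 41, 31.4 TPM in cell 34, 17.7 TPM in cell 69 and 10.25 TPM in cell 25. It was found at 8.31 TPM in cell 13, 7.28 TPM in cell 24 and 5.19 TPM in cell 16. The lowest values were 2.69 TPM in cell 8, 2.38 TPM in cell 26 and 1.34 TPM in cell 62. The 10 cells made up 11.9% of the sort, with an exact Clopper-Pearson 95% interval from 5.86% to 20.8% that covers counting error over cells only. Just outside the limit lay cell 80 with 0.8 TPM and cell 7 with 0.25 TPM. In all, 13 cells lay above 0 and under TPM 1, and 61 cells were listed at 0.

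The number of genes at TPM 1 or more ranged from 5977 to 10073 in the Runx1-detected cells, with a median of 7213, and from 3334 to 9884 in the other cells, with a median of 6898. Cell 62, with the least Runx1 among the 10, had the most genes of all. Read numbers per cell are unknown from TPM, and a value of 0 can stand for absence or for a transcript missed in capture. The second index of the library barcode splits the cells into 7 sets of 12, of which 5 held between 1 and 3 Runx1-detected cells and the others held 0.

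The label of the group was checked against the markers given with it, Runx1, Gata2 and Kit. Gata2 (chromosome 6, 88193891 to 88207032), a zinc-finger factor that acts upstream of Runx1, was detected at TPM 1 or more in 7 of 10 Runx1-detected cells (70%, interval 34.8% to 93.3%) and in 48 of 74 other cells (64.9%, 52.9% to 75.6%). Its level ran from 0 to 73.8 TPM with a median of 10.29 TPM in Runx1-detected cells, and from 0 to 303 TPM with a median of 14.54 TPM in the other cells. The ranges overlapped throughout, and only 4 of the 10 cells lay above the median of the others. Kit (chromosome 5, 75574987 to 75656722), the receptor for stem cell factor, was detected in 7 of 10 Runx1-detected cells (70%, 34.8% to 93.3%) and in 51 of 74 other cells (68.9%, 57.1% to 79.2%). Its median was 12.3 TPM in Runx1-detected cells and 5.53 TPM in the other cells. The 4 cells with Runx1 at TPM 10 or more all held Kit, at 13.6 TPM in cell 41, 11.03 TPM in cell 34, 51.6 TPM in cell 69 and 32.7 TPM in cell 25. The most Kit was in cell 24, at 74.7 TPM, and Kit was at 19.05 TPM in cell 62, 2.13 TPM in cell 16 and 0.15 TPM or less in cells 13, 8 and 26.

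**Figure D1:**
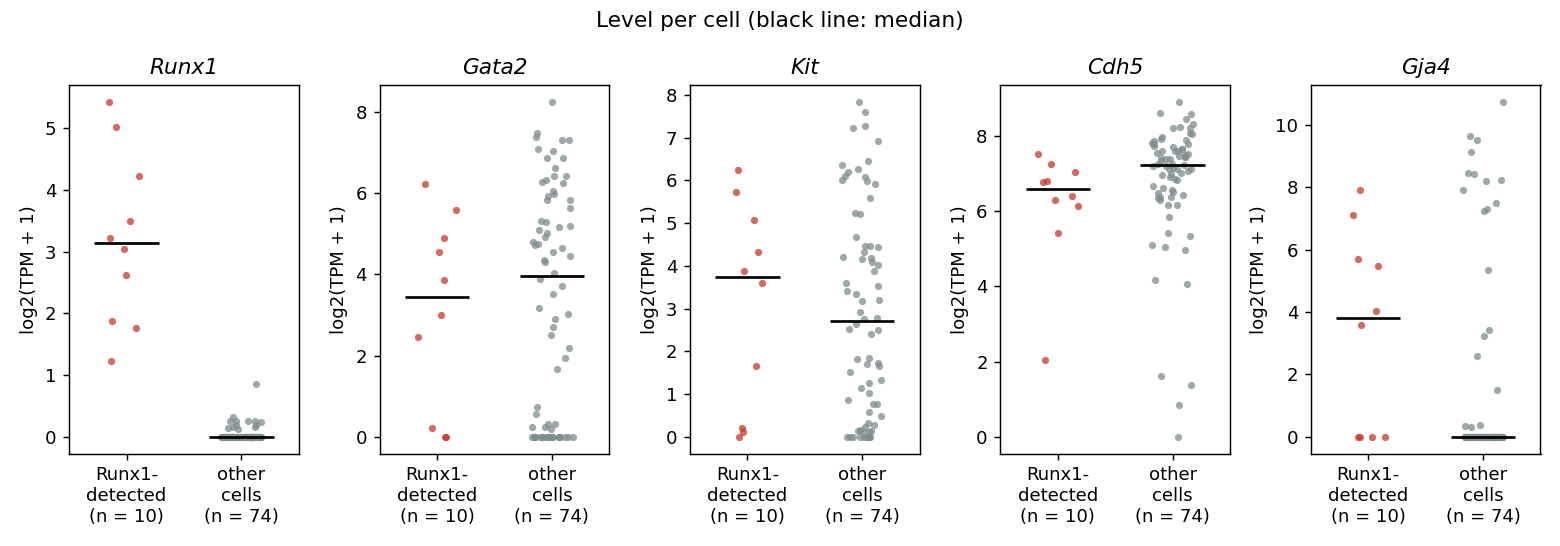
Level of Runx1, Gata2, Kit, Cdh5 and Gja4 per cell as log2(TPM + 1), with the 10 Runx1-detected cells at the left of each panel and the 74 other cells at the right, and a black line at each median. Runx1 separates the sets because it chose them, whereas the values of Gata2 and Kit overlap throughout, and Gja4 is at TPM 1 or more in 6 of 10 Runx1-detected and 17 of 74 other cells.

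Gata2 and Kit were found together in 6 of 10 Runx1-detected cells (60%, 26.2% to 87.8%) and in 33 of 74 other cells (44.6%, 33.02% to 56.6%). The 6 were cells 41, 69, 25, 24, 16 and 62, and each also held the endothelial genes Pecam1 and Cdh5 at TPM 1 or more. The same 4 transcripts without Runx1 were found in 32 of 74 other cells. Cells 13 and 8 held neither Gata2 nor Kit at TPM 1, which was also true of 8 of the 74 others. By these markers, Gata2 and Kit were detected at like shares with and without Runx1, with intervals too wide at 10 cells to show a moderate difference.

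Among the relatives and partners of Runx1, Cbfb, its obligate partner, was detected in 10 of 10 Runx1-detected cells and 68 of 74 other cells, at medians of 31.8 TPM in Runx1-detected and 34.5 TPM in other cells. The other family members Runx2 and Runx3 reached TPM 1 in 0 of the 10 cells, against 10 and 1 of the 74 others. Runx1t1, a corepressor gene known from its fusion to RUNX1 in human leukaemia, was detected in 8 of 10 Runx1-detected cells and 38 of 74 other cells, with medians of 29.4 TPM in Runx1-detected and 1.25 TPM in other cells. Its mean log2(TPM + 1) was 1.70 higher in Runx1-detected cells, and on this scale the differences of weakly expressed genes come out too small. The related corepressors Cbfa2t2 and Cbfa2t3 differed by 0.28 and by -0.50 on that scale. Runx1t1 reached 368 TPM in cell 13 and 163 TPM in cell 26, which both held 7 of 11 mesenchyme genes at TPM 10, and it was at 0 in cell 41. Among the 35 cells with at least 3 mesenchyme genes at TPM 10, of which 8 held Runx1, the Runx1t1 difference was 0.18.

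As a yardstick for size, a difference of 1 or more in mean log2(TPM + 1) was taken as past the limit, over 12317 genes at TPM 1 or more in at least 5 of the 84 cells, Runx1 left out. Of these, 1190 (9.66%) were higher by that much in Runx1-detected cells and 423 (3.43%) were lower. The median difference of all genes was 0.11, with 7147 genes higher and 5170 lower. Because the mean of 10 cells moves with single cells, a gene past the limit is not thereby shown to differ between the sets.

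Blood-regulator transcription factors did not stand apart as a group. Of 26 listed genes 17 passed the filter on low values. Of these 8 were higher and 9 lower in Runx1-detected cells, with a median difference of -0.12, and 2, Meis1 among them, were higher by more than the limit. That is 2 of 17, near the 9.66% of all genes. Lmo2, a bridging protein of blood and endothelial transcription complexes, was detected in 9 of 10 Runx1-detected cells and 68 of 74 others and differed by 0.51. Fli1, an ETS factor of both lineages, was found in 10 of 10 Runx1-detected and 72 of 74 other cells, at medians of 199 TPM in Runx1-detected and 154 TPM in other cells. Erg, Etv6 and Hhex differed by -0.30, 0.47 and 0.84, Ldb1 by -0.67, and Bcl11a by 0.74. Tal1, the helix-loop-helix partner of Lmo2, was detected in 1 of 10 Runx1-detected cells (10%, 0.253% to 44.5%) and in 26 of 74 other cells (35.1%, 24.4% to 47.1%). That cell was cell 41, with 6.8 TPM. Its relative Lyl1 was found in 3 of 10 Runx1-detected and 35 of 74 other cells, and the 3 were cell 41 (46.4 TPM), cell 24 (33.6 TPM) and cell 62 (7.80 TPM).

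Several of the remaining factors of the list were rare or not detected in the set, and others were found in 3 to 5 of the 10 cells. Gfi1 and Spi1 were detected in 0 of 84 cells. Gfi1b, a repressor of the endothelial program and a Runx1 target in mouse, was detected in 1 of 10 Runx1-detected cells and 3 of 74 others, and stood at 89.6 TPM in cell 41 against at most 9.99 TPM elsewhere. Myb was detected in 0 of 10 Runx1-detected cells and 5 of 74 others, and Hlf in 1 of 10 Runx1-detected and 1 of 74 other cells, at 23.2 TPM in cell 34. Ikzf1, Cebpa and Klf1 were each found in 0 of the 10 and 1 of the 74 cells. Ikzf2 was found in 4 of 10 Runx1-detected and 8 of 74 other cells, with a difference of 0.96. Mecom and Hoxa9, linked to stem cell self-renewal, were detected in 5 and 4 of the 10 cells, against 42 and 32 of the 74, and differed by -0.52 and -0.62. Mecom was at 94.7 TPM in cell 26, 68.2 TPM in cell 16 and 59.7 TPM in cell 62. Zfpm1, a cofactor of Gata1, was found in 3 of 10 Runx1-detected and 20 of 74 other cells, at 2.25 TPM or less in Runx1-detected cells.

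Meis1 (chromosome 11, 18880428 to 19019651), a homeodomain factor used by blood stem cells and by embryonic mesenchyme alike, had the largest difference in the list. Meis1 was detected in 9 of 10 Runx1-detected cells (90%, 55.5% to 99.7%) and 44 of 74 other cells (59.5%, 47.4% to 70.7%). It ran from 0.2 TPM to 1225 TPM with a median of 66.4 TPM in Runx1-detected cells, and from 0 to 1551 TPM with a median of 2.85 TPM in the other cells, a difference of 2.29. Meis1 was highest in cell 13 (1225 TPM), cell 41 (699 TPM), cell 26 (323 TPM) and cell 69 (307 TPM). Among the 35 cells with at least 3 mesenchyme genes at TPM 10, of which 8 held Runx1, the difference of Meis1 was -0.87, the opposite sign to that over all cells.

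**Figure D2:**
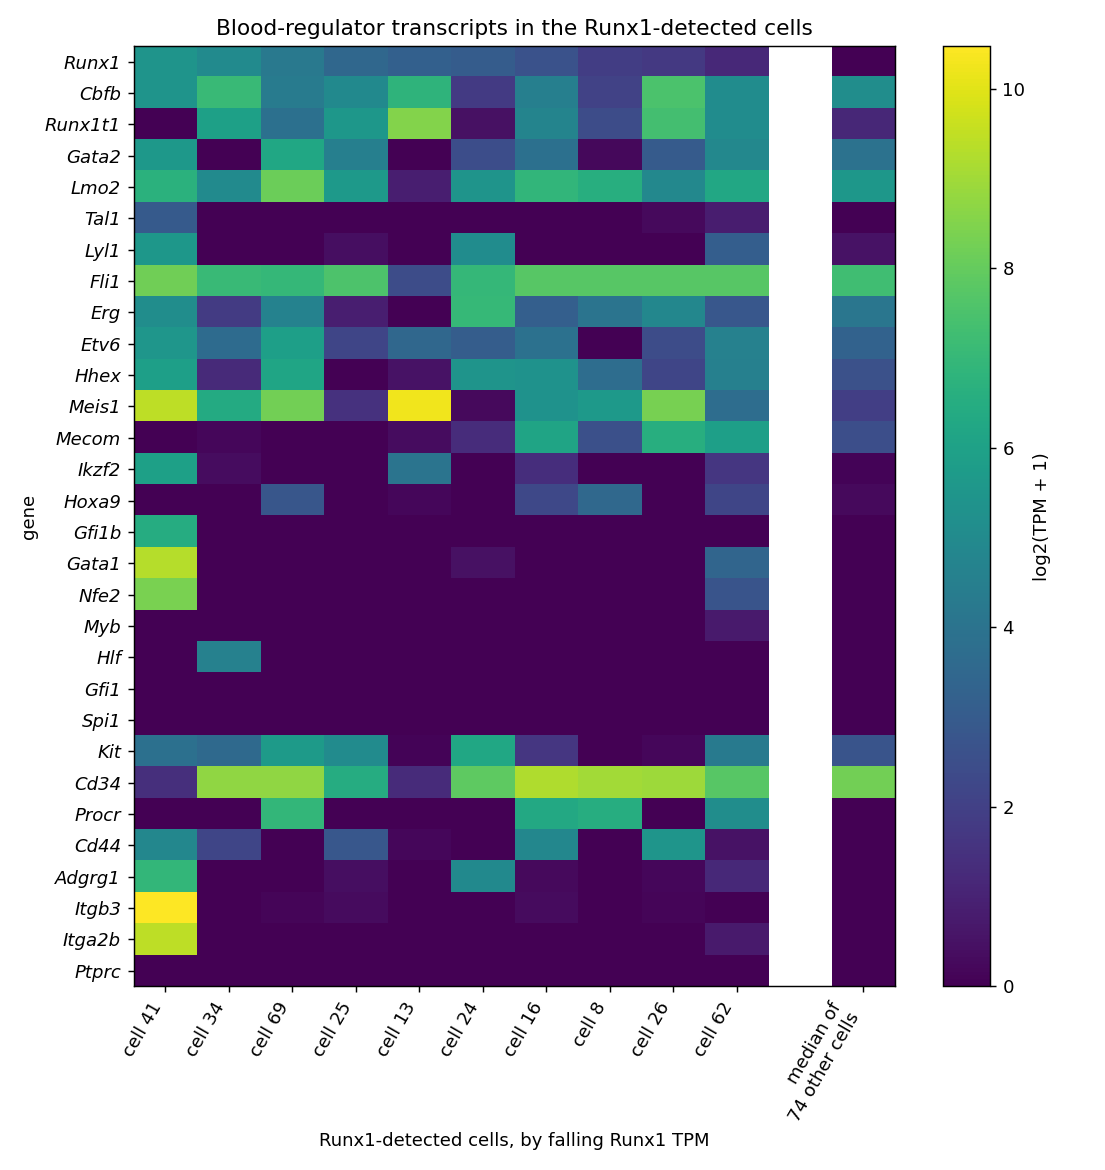
Level of blood-regulator genes (rows) as log2(TPM + 1) in the 10 Runx1-detected cells (columns, by falling Runx1) and the median over the 74 other cells (right column). Cell 41 alone carries high Gfi1b, Gata1, Nfe2, Itga2b and Itgb3, cell 13 has Meis1 without Gata2 or Kit, and Gfi1, Spi1 and Ptprc are empty in every cell.

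Surface proteins and other markers of blood-forming endothelium were measured next. Of 18 listed genes 10 passed the filter, 7 of them higher and 3 lower, with a median difference of 0.24. Cd44 (chromosome 2, 102811141 to 102901669), a hyaluronan receptor found on emerging blood cells and also on mesenchyme, was the one gene past the limit, and 1 of 10 is near the 9.66% of all genes. Procr, Adgrg1 and Itga2b differed by 0.82, 0.78 and 0.75, and without cells 41 and 13 by 1.44, 0.27 and -0.17. Itga2b was detected in 1 of 10 Runx1-detected cells, cell 41, and in 6 of 74 other cells, at up to 121 TPM in those. Cd44 was detected in 5 of 10 Runx1-detected cells (50%, 18.7% to 81.3%) and 7 of 74 other cells (9.46%, 3.89% to 18.5%). The 5 were cell 26 (43.7 TPM), cells 41 and 16 (27.9 TPM each), cell 25 (6.14 TPM) and cell 34 (3.60 TPM), and the difference was 1.71. Cd34 was detected in 10 of 10 Runx1-detected and 70 of 74 other cells and differed by -0.51, but it was at only 1.67 TPM in cell 41 and 1.43 TPM in cell 13 and at 88.8 TPM or more in the others of the 10. Procr, the protein C receptor of blood stem cells, was found in 4 of 10 Runx1-detected cells and 26 of 74 others, at 121 TPM in cell 69, 90.7 TPM in cell 8, 78.04 TPM in cell 16 and 33.8 TPM in cell 62. Adgrg1, listed under its older symbol, was detected in 3 of 10 Runx1-detected and 10 of 74 other cells, and Neurl3 in 10 of 10 Runx1-detected and 74 of 74 other cells. Cd93 and Cd47 differed by -0.37 and 0.16, and Vwf by -0.04. Ptprc, Flt3 and Spn were detected in 0 of 84 cells, and Ly6a and Csf1r in 0 of 10 Runx1-detected and 1 of 74 other cells. Ace was found in 1 of 10 Runx1-detected and 2 of 74 other cells.

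Cell 41, which held the most Runx1, carried a platelet program. All 8 megakaryocyte or platelet genes were at TPM 10 or more in it, against at most 3 in any other cell. The chemokine gene Pf4 (chromosome 5, 90772435 to 90773383) stood at 35696 TPM and was the most abundant transcript of that cell, and its neighbour Ppbp stood at 10388 TPM. The platelet glycoprotein genes Gp9, Gp6 and Gp1ba stood at 2425, 981 and 755 TPM. The summed list made up 5.15% of all TPM in cell 41, 0.0073% in cell 62 and at most 0.043% in any cell without Runx1. Itga2b, which encodes the CD41 protein that the sort was meant to exclude, was at 686 TPM in cell 41 and its partner Itgb3 at 1427 TPM. Gata1 and Nfe2, factors of the megakaryocyte and red cell lineages, stood at 632 TPM and 327 TPM. Endothelial genes were present too, with 14 of 19 at TPM 10, Pecam1 at 127 TPM, Cdh5 at 41.8 TPM and Kdr at 190 TPM. Ptprc was at 0. Whether cell 41 is 1 cell with both programs or a capture of more than 1 cell was not tested.

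Upstream sequences are shown for 4 of the platelet genes that were high in this single cell. They are the 250 bases before 1 RefSeq transcript start for each gene, the first listed, on GRCm38.p6, written 5′ to 3′ on the gene's own strand. Capitals mark the core of the motif bound by GATA factors such as Gata1 and Gata2, GATAA or, on the other strand, TTATC. The choice holds every platelet-list gene with a match, namely Gp9, Gp1ba and Gp6. Ppbp, Itga2b and Gp1bb were searched too, had no match and are not shown. Outside the platelet list, Runx1 was searched and had no match, and Gfi1b, at 89.6 TPM in cell 41, had a match. Both are not shown. Pf4 lies at chr5:90772185-90772434 on the plus strand, Gp9 lies at chr6:87777820-87778069 on the plus strand, Gp1ba lies at chr11:70638872-70639121 on the plus strand and Gp6 lies at chr7:4397745-4397994 on the minus strand.
Pf4: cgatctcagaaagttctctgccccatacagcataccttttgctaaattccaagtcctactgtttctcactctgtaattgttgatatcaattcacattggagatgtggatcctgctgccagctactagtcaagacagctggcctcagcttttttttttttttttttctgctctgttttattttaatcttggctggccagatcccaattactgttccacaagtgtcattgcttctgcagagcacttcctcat
Gp9: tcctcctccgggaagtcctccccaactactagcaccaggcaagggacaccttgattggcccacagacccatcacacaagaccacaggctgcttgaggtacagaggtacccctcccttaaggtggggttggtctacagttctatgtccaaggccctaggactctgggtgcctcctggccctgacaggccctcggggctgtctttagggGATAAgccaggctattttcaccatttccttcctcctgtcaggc
Gp1ba: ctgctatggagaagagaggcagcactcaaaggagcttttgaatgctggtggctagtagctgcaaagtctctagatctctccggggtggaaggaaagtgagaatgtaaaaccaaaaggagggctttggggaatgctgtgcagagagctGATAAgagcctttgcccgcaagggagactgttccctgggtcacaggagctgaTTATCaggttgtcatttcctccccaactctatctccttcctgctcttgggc
Gp6: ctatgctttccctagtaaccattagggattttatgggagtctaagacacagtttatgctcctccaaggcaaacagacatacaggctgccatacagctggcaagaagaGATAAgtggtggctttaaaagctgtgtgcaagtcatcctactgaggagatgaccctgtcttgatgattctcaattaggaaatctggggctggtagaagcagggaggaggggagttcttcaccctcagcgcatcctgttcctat

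The letters GATAA or TTATC were found in 3 of the 7 platelet-list genes with an upstream sequence, namely Gp9, Gp1ba and Gp6. They were found in 23.02% of 27025 upstream sequences of the same length and in 14.6% of 9317 genes tested. The longer AGATAA, searched first, was found in 1 of the 7 and in 10.3% of all. The Runx core TGTGGT or ACCACA was found in 1 of the 7, Gp9, and in 14.2% of all. Of 926 genes with such a sequence that were higher by more than the limit in Runx1-detected cells, 9.94% held the Runx core, against 10.5% of genes tested. The record of Gp9 runs over bases 87776131 to 87779786 of chromosome 6, so its window lies within the gene, and the windows of Gp6 and Gp1ba overlap the outermost part of theirs. A match is a run of letters and not a binding site, and the motifs were chosen after the values were seen.

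Pf4 outside cell 41 was low. It was found at 159 TPM in cell 25, 41.6 TPM in cell 62 and 23.9 TPM in cell 34, and at 0 in the other 6 Runx1-detected cells, while 14 of 74 other cells held it at up to 317 TPM. Genes regarded as Runx1 targets in blood cells, 11 in the list, were at TPM 10 in 5 cases in cell 41, in 1 case in cells 34, 25 and 62, and in 0 cases in the other 6 cells. In the 74 other cells at most 1 reached that level. Of the 11, 3 passed the filter, and without cells 41 and 13 their median difference was -0.17. Mpo was detected in 0 cells. Red cell genes accompanied the platelet genes in cells 41 and 62, with Hba-a2 at 75.7 TPM and 275 TPM and Hba-a1 at 67.7 TPM and 37.01 TPM. These globin copies are near identical and their values depend on how shared reads were divided. The pairing was not confined to cells with Runx1. Cell 81, with Runx1 at 0, held 3 red cell and 3 platelet genes at TPM 10, as did cell 62. Fcer1g, an immune receptor subunit also present in platelets, was at 496 TPM in cell 41, 48.5 TPM in cell 16 and 7.17 TPM in cell 62, and Lyz2, a lysozyme gene of myeloid cells, was at 302 TPM in cell 41 and 0 in the other 9. Cx3cr1 was at TPM 1 or more in 8 of 10 Runx1-detected cells and 39 of 74 other cells, at no more than 3.15 TPM in Runx1-detected cells. The other 8 of the 11 macrophage genes were under TPM 1 in all 10 cells.

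Endothelial genes were present in 9 of the 10 cells. A median of 15 of 19 pan-endothelial genes reached TPM 10 in Runx1-detected cells, with a range from 2 to 18, against a median of 16 in the other cells, with a range from 0 to 19. The exception was cell 13, with 2 of the 19, Pecam1 at 0.64 TPM, Cdh5 at 3.13 TPM and Kdr at 2.17 TPM. Pecam1 was detected in 9 of 10 Runx1-detected and 71 of 74 other cells, at medians of 110.5 TPM in Runx1-detected and 169 TPM in other cells, and its mean log2 level was 1.33 lower in Runx1-detected cells. Tie1, a receptor of the angiopoietin pathway, was 1.66 lower, with 0 of the 10 cells above the median of the others. Kdr and Esam hardly differed, at -0.01 and -0.08, and Ets1 was 0.39 higher. Of the 19 genes 15 were lower and 4 higher, with a median difference of -0.51, while 5170 of all 12317 genes were lower. Pecam1 and Tie1 were the 2 of 19 past the limit, beside 3.43% of all genes on the lower side. Without cells 41 and 13 the list median was 0.34, the opposite sign to that over all 10 cells, while Pecam1 remained lower, at -0.88.

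Arterial genes were present at mixed levels. A median of 5.5 of 21 arterial genes reached TPM 10 in Runx1-detected cells and 5 in the other cells. Of 20 genes that passed the filter 7 were higher and 13 lower, with a median difference of -0.19. Past the limit on the higher side was 1 of these 20, beside 9.66% of all genes. It was the connexin gene Gja4 (chromosome 4, 127311420 to 127314039), a gap junction protein of arterial endothelium. It was found in 6 of 10 Runx1-detected cells (60%, 26.2% to 87.8%) and 17 of 74 other cells (22.97%, 13.99% to 34.2%). Its levels were 240 TPM in cell 16, 136 TPM in cell 26, 51.4 TPM in cell 62, 44.1 TPM in cell 69, 15.6 TPM in cell 24 and 11.01 TPM in cell 8, and the difference was 1.77. Of the 4 cells with Runx1 at TPM 10 or more only cell 69 held Gja4. Against all remaining cells, those with less Runx1 included, the difference for those 4 was -0.47. The other 5 cells with Gja4 had Runx1 under TPM 10. Within the cells holding mesenchyme genes the difference was 2.80.

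Dll4, a Notch ligand of arterial and sprouting endothelium, was found in 4 of 10 Runx1-detected and 25 of 74 other cells, at 43.99 TPM in cell 34, 25.4 TPM in cell 25, 3.71 TPM in cell 62 and 1.48 TPM in cell 16. Gja5 and Hey2, which are more restricted to arteries, were detected in 0 of 10 Runx1-detected cells, against 8 and 4 of 74 others; 0 of 10 allows a share of up to 30.8%. At least 1 of Gja4, Gja5 and Dll4 was present in 8 of 10 Runx1-detected cells (80%, 44.4% to 97.5%) and 35 of 74 other cells (47.3%, 35.6% to 59.3%). Cells 41 and 13 were those without. Efnb2 was detected in 10 of 10 Runx1-detected and 68 of 74 other cells at medians of 70.5 TPM in Runx1-detected and 64.7 TPM in other cells. Nrp1 was detected in 10 of 10 Runx1-detected and 68 of 74 other cells, and Notch1 in 9 of 10 Runx1-detected and 67 of 74 other cells, with differences of -0.38 and -0.72. Sox17, a SoxF factor of arterial and hemogenic endothelium, was found in 6 of 10 Runx1-detected and 31 of 74 other cells, and Hey1, a Notch target, in 6 of 10 Runx1-detected and 39 of 74 other cells. Notch4 was 1.16 lower, at no more than 4.93 TPM in any Runx1-detected cell. It was the 1 of 20 arterial genes past the limit on the lower side, beside 3.43% of all genes. Epas1 and Cxcr4 were 0.90 and 0.56 higher, and Acvrl1 0.26 higher. Unc5b, Jag1, Jag2, Heyl, Bmx, Tmem100, Vegfc and Nt5e differed by between -0.46 and -0.05. Of 10 other Notch pathway genes, Notch2 alone was past the limit, and 1 of 10 is near the 9.66% of all genes. Notch2 was detected in 10 of 10 Runx1-detected and 52 of 74 other cells, with a difference of 1.08.

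**Figure D3:**
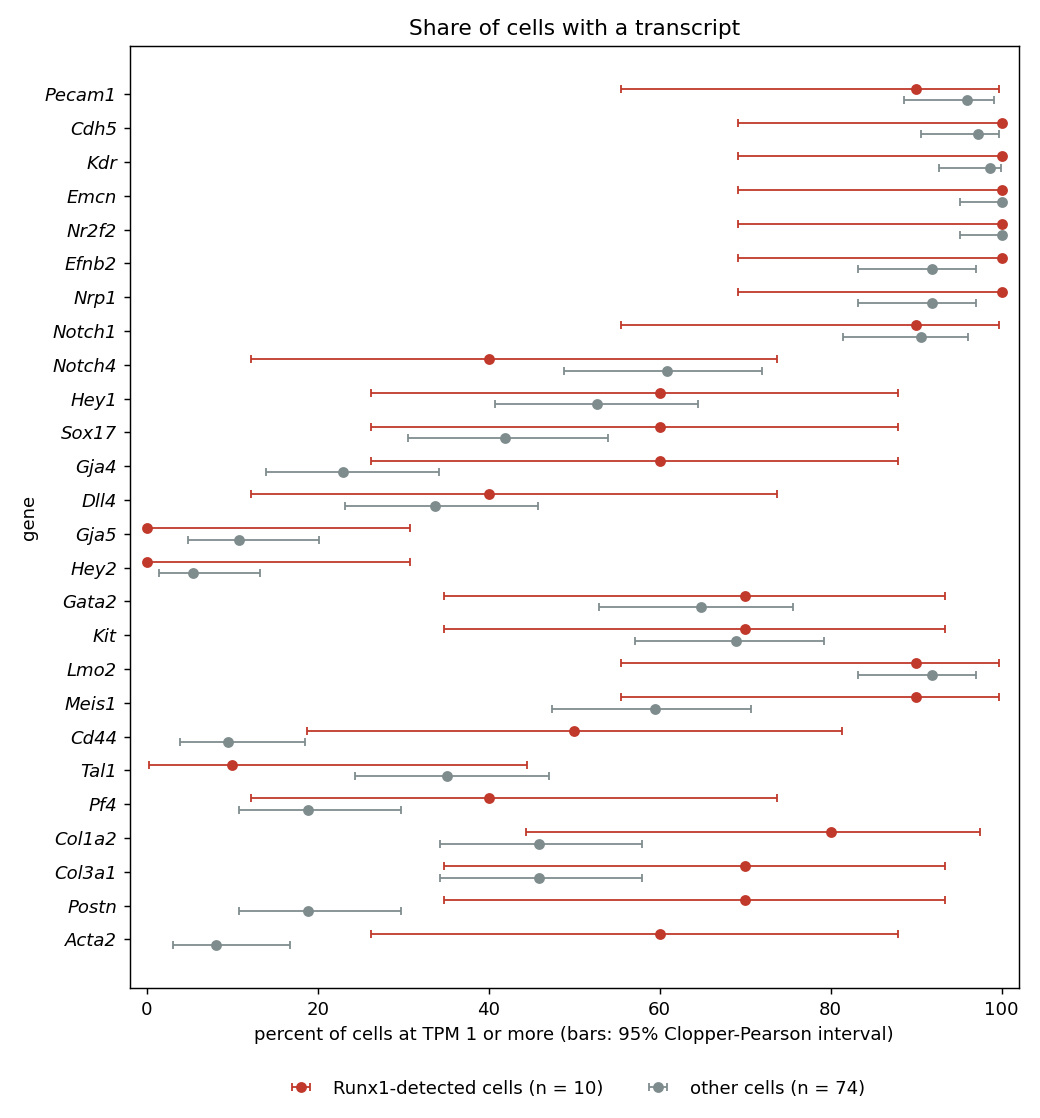
Share of cells with each gene at TPM 1 or more in the 10 Runx1-detected cells (red, upper) and the 74 other cells (grey, lower), with exact 95% intervals over cells. Gata2, Kit, Lmo2 and the endothelial genes have like shares, and the shares of Acta2 (60% and 8.11%) and Postn (70% and 18.9%) lie furthest apart among the genes drawn.

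Venous and lymphatic genes did not mark the set, and most had a lower mean in it. A median of 7 of 9 venous genes reached TPM 10 in both sets. The venous regulator Nr2f2 was detected in all 84 cells, at medians of 104.8 TPM in Runx1-detected cells and 173 TPM in the others. Its difference was -0.94, with 1 of the 10 cells above the median of the others. Of the 9 venous genes 7 were lower and 2 higher, while 5170 of all 12317 genes were lower. Stab1, a scavenger receptor, was 1.32 lower and the only venous gene past the limit. That is 1 of 9, beside 3.43% of all genes lower by that much. The median venous difference was -0.69, and it was -0.22 without cell 13. The lymphatic regulator Prox1 was found in 4 of 10 Runx1-detected and 37 of 74 other cells, with 141 TPM in cell 24, 125 TPM in cell 69, 63.6 TPM in cell 34 and 13.2 TPM in cell 62. Those 4 cells also held Flt4, the receptor for VEGF-C, as did 35 of the 74 others together with Prox1. Pdpn was 1.52 lower, in 4 of 10 Runx1-detected and 46 of 74 other cells, and was the 1 of 4 lymphatic genes past the limit.

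Mesenchyme genes had the largest median difference among the lists of other cell types with more than 2 genes tested. At least 3 of 11 reached TPM 10 in 8 of 10 Runx1-detected cells (80%, 44.4% to 97.5%) and in 27 of 74 other cells (36.5%, 25.6% to 48.5%). The number per cell was a median of 5 in Runx1-detected cells, from 0 in cell 8 to 7 in cells 34, 13 and 26, against a median of 1 in the others, from 0 to 9. Read the other way, Runx1 was detected in 8 of 35 cells with at least 3 such genes (22.9%, 10.4% to 40.1%) and in 2 of 49 with fewer (4.08%, 0.498% to 13.98%). Of the 11 genes 10 had a higher mean, with a median difference of 1.25. Beside 9.66% of all genes, 7 of the 11 were past the limit. They were Postn (2.38), the collagen genes Col1a2 (2.18), Col3a1 (1.87) and Col1a1 (1.25), the growth factor receptor gene Pdgfra (2.01), the proteoglycan gene Lum (1.69) and the transcription factor gene Twist1 (1.04). Postn was detected in 7 of 10 Runx1-detected and 14 of 74 other cells, with 1710 TPM in cell 25 as the highest value and 0 in cell 24 as the lowest. The part of mesenchyme RNA in the other differences was not tested.

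Mesenchyme and endothelial genes stood side by side in most of these cells, and not in them alone. Among the 27 other cells with at least 3 mesenchyme genes at TPM 10, cell 48 had 17 endothelial and 7 mesenchyme genes. Cell 65 there had 0 and 5. Of the 8 Runx1-detected cells with at least 3 mesenchyme genes, 7 held between 12 and 18 of the 19 endothelial genes at TPM 10. Cell 16, for example, had 18 endothelial and 6 mesenchyme genes, Cdh5 at 184 TPM and Col1a2 at 117 TPM. Cell 13 differed, with Lum at 1806 TPM, Col1a2 at 356 TPM and Col3a1 at 296 TPM and few endothelial genes. Cell 8, with 0 mesenchyme and 18 endothelial genes, held Runx1 at 2.69 TPM, Gja4 at 11.01 TPM and Sox17 at 25.6 TPM, but neither Gata2 (0.16 TPM) nor Kit (0). It was the only 1 of the 10 cells with fewer than 3 markers at TPM 10 of every other cell type listed, against 42 of the 74 others.

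**Figure D4:**
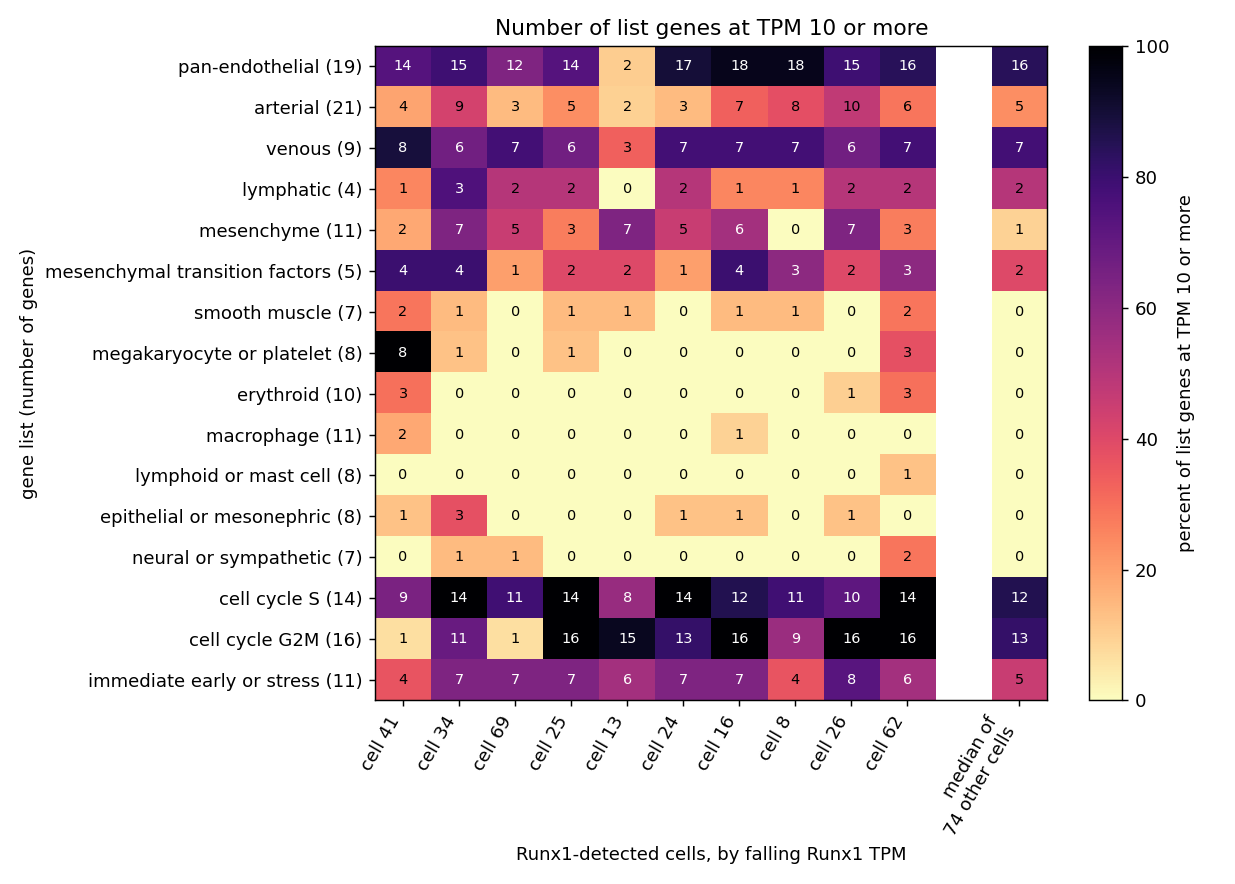
Number of genes of each list at TPM 10 or more (digits) in each of the 10 Runx1-detected cells, by falling Runx1, and the median over the 74 other cells; colour gives the percent of the list. Cell 41 holds all 8 platelet genes, cell 13 holds 2 of 19 endothelial genes, 8 cells hold 3 or more mesenchyme genes, and cells 41 and 69 hold 1 of 16 G2M genes.

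Transcription factors of the endothelial to mesenchymal transition followed the same direction. All 5 listed, Snai1, Snai2, Twist1, Zeb1 and Zeb2, had a higher mean in Runx1-detected cells, with a median difference of 0.43. Over all genes 7147 of 12317 were higher. Past the limit were 2 of the 5, Snai2 at 1.34 and Twist1 at 1.04, beside 9.66% of all genes. Twist1 is also in the mesenchyme list. Zeb1 and Zeb2 were only 0.16 and 0.32 higher, beside a median of 0.11 over all genes. Snai2 was detected in 10 of 10 Runx1-detected and 71 of 74 other cells, at medians of 29.65 TPM in Runx1-detected and 6.19 TPM in other cells. Among the 35 cells with mesenchyme genes Snai2 differed by 0.33 and Twist1 by -0.29. Without cells 41 and 13 Snai2 differed by 0.78 and Twist1 by 0.63.

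Among the other cell type lists, a few genes were found in several of the 10 cells. Acta2, the smooth muscle actin gene, was 3.80 higher in mean and was detected in 6 of 10 Runx1-detected cells (60%, 26.2% to 87.8%) and 6 of 74 others (8.11%, 3.03% to 16.8%). Its values were 784 TPM in cell 41, 331 TPM in cell 8, 299.7 TPM in cell 13, 171 TPM in cell 25, 51.2 TPM in cell 16 and 18.6 TPM in cell 62. Other smooth muscle genes were lower or absent in most of these cells. Tagln was at 1.08 TPM or less in all 10 cells and Myh11 at 0, while Des was at 19.8 TPM in cell 41 and 5.29 TPM in cell 16, and Rgs5 at 10.17 TPM in cell 62 and 5.09 TPM in cell 16. Des and Rgs5 differed by 0.48 and 0.27, Cnn1 was at 29.4 TPM in cell 34 alone, and Actg2 was at 0.63 TPM or less. Epcam was detected in 4 of 10 Runx1-detected and 3 of 74 other cells and Wt1 in 3 of 10 Runx1-detected and 3 of 74 other cells, with differences of 1.69 and 1.31. Of the 8 genes of their epithelial or mesonephric list, only these 2 passed the filter. Another 5, Krt8, Cdh1, Lhx1, Pax2 and Pax8, were detected in 0 of the 10 cells, and Krt8 in 0 of all cells. With no filter the list median was -0.0073. Macrophage, lymphoid or mast cell, smooth muscle and neural lists reached 3 genes at TPM 10 in 0 of the 10 cells, against 0, 0, 2 and 4 of the 74 others.

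Cell cycle genes varied widely within the set. Of 16 G2M genes, 8 of the Runx1-detected cells held between 9 and 16 at TPM 10, while cells 41 and 69, both among the 4 with most Runx1, each held 1. Only 4 of the 74 other cells held 1 or 0. S-phase genes were at TPM 10 in 9 of 14 cases in cell 41 and 11 of 14 in cell 69. Over the set, Aurka and Aurkb were 1.27 and 1.11 higher and Mcm3 1.04 higher. These were 2 of 16 G2M and 1 of 14 S genes past the limit, near the 9.66% of all genes. Within index sets Aurkb differed by -0.33. For the cells with Runx1 at TPM 10 or more Aurka and Aurkb differed by -0.089 and -0.65. The median differences over the set were 0.28 for G2M and 0.15 for S genes.

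Immediate early genes, which respond to stimuli and to cell dissociation, were higher in several cases. Egr1 was detected in 10 of 10 Runx1-detected cells and 51 of 74 others. It ran from 12.8 to 647 TPM with a median of 194 TPM in Runx1-detected cells, and from 0 to 1148 TPM with a median of 23.04 TPM in the other cells, a difference of 3.09. Fosb, Fos and Jun were 2.33, 1.32 and 1.07 higher. With Egr1 that is 4 of 11 listed genes past the limit, beside 9.66% of all genes. The list of 11 had 7 higher and 4 lower members with a median of 0.38. That count of higher members is near the share over all genes, 7147 of 12317. Among the 35 cells with mesenchyme genes, Egr1 was still 1.48 higher. The part of dissociation in these values was not tested.

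Over all genes, the 10 with the largest higher mean that were found in at least 5 of the 10 cells were Tbc1d19, Acta2, Capn6, Sertad4, Egr1, Bfar, Dnajc17, Hddc3, Ldhb and Eno3, with differences from 3.83 to 2.80. Tbc1d19 (chromosome 5, 53809543 to 53909221), which encodes a protein with a TBC domain as in regulators of Rab proteins, was detected in 10 of 10 Runx1-detected and 31 of 74 other cells, at medians of 78.3 TPM in Runx1-detected and 0.275 TPM in other cells. Ldhb, a lactate dehydrogenase subunit, was found in 10 of 10 Runx1-detected and 55 of 74 other cells at medians of 408 TPM in Runx1-detected and 195 TPM in other cells, and all 10 cells lay above the median of the others. Among the 35 cells with mesenchyme genes the Ldhb difference was 0.70, under the limit. Bfar, a regulator of apoptosis, was found in 10 of 10 Runx1-detected and 45 of 74 other cells, and Capn6, a calpain relative, in 8 of 10 Runx1-detected and 19 of 74 other cells. The 10 with the largest lower mean were Tm2d3, Tmem97, Nabp2, Rce1, Slc35b2, Smyd5, 2610044O15Rik8, Crot, Eltd1 and Chchd6, from -2.98 to -2.10. Tm2d3 was found in 5 of 10 Runx1-detected and 60 of 74 other cells, at medians of 0.97 TPM in Runx1-detected and 95.7 TPM in other cells. Eltd1, an adhesion receptor of endothelium, was found in 5 of 10 Runx1-detected and 57 of 74 other cells. These genes were named for their difference among 12317, and their values are a description.

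**Figure D5:**
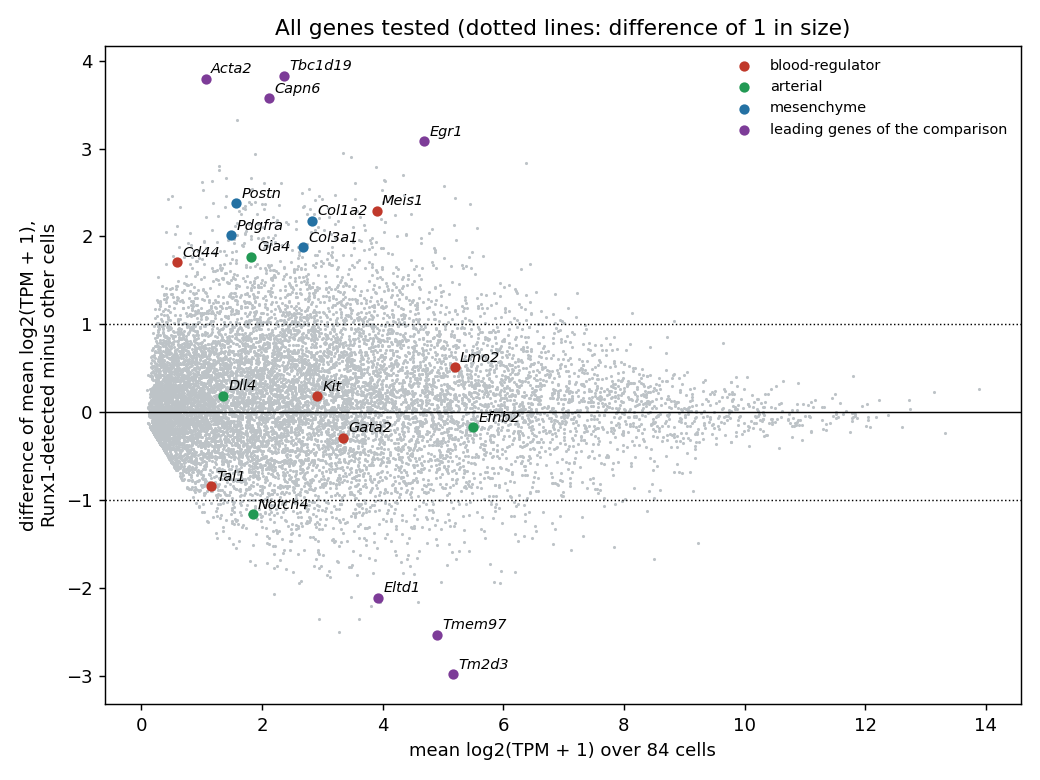
Difference of mean log2(TPM + 1), Runx1-detected minus other cells, against the mean over 84 cells for each of 12317 genes (grey), with named genes in colour and dotted lines at a difference of 1 in size. Gata2, Kit, Lmo2, Dll4 and Efnb2 lie within the lines, and Meis1, Gja4 and the mesenchyme genes drawn, Postn, Pdgfra, Col1a2 and Col3a1, lie above them.

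The 10 cells resembled each other about as much as they resembled the rest. Pearson's r of log2(TPM + 1) over the genes tested had a median of 0.592 for 45 pairs within the Runx1-detected cells, 0.585 for 740 pairs of a Runx1-detected and an other cell, and 0.581 for 2701 pairs of other cells. These are correlations across genes, which are not independent replicates. Cells 41 and 13 had the lowest medians with the rest of the set, 0.520 and 0.526.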

How the data were processed

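Single-cell RNA sequencing of 84 cells was used, each cell a sample of its own with a distinct pair of indexes (84 pairs). Per the labels' protocols, cells were captured on a chip for cells of 10 to 17 µm, SMARTer chemistry gave full-length cDNA, and libraries were read at 67 bp, 24 to a lane. The authors deposited TPM per gene, and each column sums to between 999998 and 1000002. Per the submitters' processing notes, the tools were RSEM 1.2.3, Bowtie 0.12.9 and CASAVA 1.8.2, with the build mm10; the settings were not given in the sources.

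The 84 cells count as 1 sample because no embryo is named, so no test was run. Detection means TPM 1 or more, and markers of other cell types were counted at TPM 10. Differences are of mean log2(TPM + 1), with a pseudocount of 1, over genes detected in at least 5 cells. The calculation of the difference was checked on simulated normal log values with known changes. The simulated cells lacked the many zeros of these data, so the check does not bear on the limit of 1. Intervals are exact Clopper-Pearson (SciPy 1.17.1, Python 3.11.15). The 21 lists hold 222 genes, and 1 was matched by its older symbol. Coordinates and upstream sequences are RefSeq's on GRCm38.p6, the assembly that mm10 names. Named genes are all members of the Runx family, blood-regulator, surface and arterial lists, sort genes, members of other lists past a difference of 1, and the 10 genes with the largest difference each way among genes in at least 10 cells (for higher genes, at least 5 of the 10); some list members are counted in their lists and not reported here by name. The genes of the motif search and other examples were chosen after their values were seen. Members and lists were chosen with earlier results of these data known. No doublet caller was run, since 84 cells are too few for one. The alternatives tried were other Runx1 limits, pseudocounts of 0.1 and 10, other filters, median-of-ratios scaling, exclusion of cells with markers of other types, cells of like gene number, index sets, and leaving out each cell.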

Additional observations from a re-analysis of the deposited data

Results flagged for a closer look

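Among the 10 Runx1-detected cells, 52 per-cell values were screened for a cell whose gap to the nearest other exceeds Dixon's 95% critical share of the range, and 14 had one. For independent continuous values chance gives about 1 in 20, but these include small counts with ties and overlapping lists, so that share is no yardstick here. Cell 41 stood above the rest with 15 of 26 blood-regulator factors at TPM 10 (next 9), 5 of 11 Runx1 target genes (next 1), 8 of 8 megakaryocyte or platelet genes (next 3) and 2 of 11 macrophage genes (next 1). Cell 13 stood below the rest with 2 of 19 pan-endothelial genes (next 12) and 3 of 9 venous genes (next 6). In cell 13 the log2(TPM + 1) values of Lmo2 (0.87), Fli1 (2.42), Cd93 (1.76) and Cdh5 (2.05) were also the lowest, against next values of 4.88, 6.97, 7.18 and 5.42. Cd47 was lowest in cell 26, at 0.86 against 5.34. Cell 62 held 1 lymphoid or mast cell gene (next 0) and 2 neural or sympathetic genes (next 1), and cell 34 held 3 epithelial or mesonephric genes (next 1).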

How the results depend on the processing

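The alternatives gave 3108 values, of which 2420 stayed close, 640 moved further and 48 changed sign; the cause was not tested. Close means within 1.5 times for a count, inside the interval for a share, and within 0.5 and on the same side of 1 for a difference. The counts of genes higher and lower by 1 or more were 541 and 213 with Runx1 above 0, 2071 and 1657 with Runx1 at TPM 10 (4 cells), 2537 and 906 with a pseudocount of 0.1, and 189 and 51 with a pseudocount of 10. Within index sets 717 were lower. Leaving out each Runx1-detected cell in turn gave 1216 to 1383 higher and 362 to 621 lower, the last without cell 62. The range was 66.7% to 77.8% for cells with Gata2 and for cells with Kit. For list medians it was 0.93 to 1.57 for mesenchyme, -0.75 to -0.12 for pan-endothelial, 0.10 to 0.61 for blood surface, -0.11 to 0.08 for blood regulators, -0.21 to -0.07 for arterial and -0.81 to -0.22 for venous genes.

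With Runx1 above 0 the venous median was -0.10 and 2610044O15Rik8 differed by 0.0087. With Runx1 at TPM 10 the share with Kit was 100%, the blood surface and mesenchyme medians were 0.94 and 0.72, and Aurka, Aurkb, Gja4, Lum and Pdpn differed by -0.089, -0.65, -0.47, -0.69 and 0.74. The mesenchyme median was 2.42 and 0.42 with pseudocounts of 0.1 and 10, and 0.92 within index sets, where the venous median was -0.18 and Aurkb differed by -0.33. With no filter the epithelial or mesonephric median was -0.0073.

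Without cells holding 3 mesenchyme genes, 2 Runx1-detected cells (8 and 41) and 47 others were left, and 2750 genes were higher and 2569 lower. Medians were 0.90 for blood surface, 0.59 for blood regulators, -0.043 for mesenchyme and -0.043 for venous genes. Aurka, Aurkb, Col1a2, Col3a1, Crot, Epcam, Fos, Gja4, Lum, Pdgfra and Runx1t1 differed by -3.29, -3.68, -0.33, -0.33, 0.53, -0.27, -1.11, -0.19, -0.041, -0.22 and -0.15.

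Without cells holding 3 markers of any other type, 1 Runx1-detected cell (8) and 42 others were left, and 3211 genes were higher and 3136 lower. Cells with Gata2 and with Kit were 0%, and medians were -0.37 for blood surface, -0.15 for epithelial or mesonephric and -0.10 for mesenchyme genes. Aurka, Aurkb, Cd44, Chchd6, Col1a2, Crot, Eno3, Epcam and Fcer1g differed by -2.96, -3.54, -0.22, 0.91, -0.10, 0.20, -0.58, -0.11 and -0.63. Fos, Fosb, Hba-a2, Lum, Notch4, Pdgfra, Pf4, Twist1 and Wt1 differed by -0.58, -0.86, -0.022, -0.033, 0.37, -0.20, -0.65, -0.26 and -0.19.

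A pair of alternatives was chosen after seeing the data. Without cells 41 and 13 the medians were 0.96 for mesenchyme and 0.34 for pan-endothelial genes. Among the 35 cells holding 3 mesenchyme genes (8 with Runx1), 1851 genes were higher and the medians were -0.29 for mesenchyme genes, which the choice of cells limits, and 0.54 for pan-endothelial genes. Col1a1, Col1a2, Col3a1, Meis1, Notch2, Stab1 and Twist1 differed there by -0.64, -0.33, -0.33, -0.87, -0.29, 0.76 and -0.29.

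No paired analysis was possible because the cell numbers pair no cells across the sets and no test was run. Precision is set by 10 cells, and TPM leaves the depth of each unknown.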

Other observations

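Cell 62, which had the most genes detected, held several platelet transcripts of cell 41 at a near-constant small share of their level there. Pf4, Ppbp, Gp9 and Gp1ba stood at 41.6, 13.2, 2.95 and 0.86 TPM in cell 62, which is 0.117%, 0.127%, 0.122% and 0.114% of cell 41. Itga2b stood at 0.0991%. Other genes shared by the pair did not follow that share, with Gp6 at 1.26%, Gata1 at 1.55%, Nfe2 at 1.69%, Gp1bb at 2.99%, Hba-a1 at 54.7% and Hba-a2 at 363%, and Itgb3 was at 0. The genes were picked after their values were seen, and the origin of these transcripts in cell 62 was not tested. Its most abundant transcript was Churc1, at 25068 TPM. It held 3 mesenchyme, 3 red cell, 3 platelet, 2 neural or sympathetic and 1 lymphoid or mast cell genes at TPM 10. Whether cell 62 is 1 cell or a capture of more than 1 cell was not tested.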
